A study of Mus musculus with 18 samples.

Results

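The transforming growth factor beta (TGF-beta) pathway was followed through 10 genes in the messenger RNA of mouse Th17 cultures, the CD4+ helper T cells that make interleukin-17. They are the ligand gene Tgfb1, the receptor genes Tgfbr1 and Tgfbr2, the signal transducers Smad2, Smad3 and Smad4, the inhibitors Smad7, Ski and Skil, and the target gene Itgae. The genes were taken by symbol from a table of 45703 genes. All 10 were found and all 10 passed the filter on low values (at least 1 TPM in at least 3 libraries), as 14229 genes did. Itgae reached 1 TPM in 9 libraries, 6 of them GLUT3KO, and the other members in all 18.

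The 18 libraries form 6 groups of 3. GLUT3KO cells (genotype Slc2a3-fl/fl Cd4-cre) carry a floxed gene of the glucose transporter GLUT3, ACLYKO cells (Acly-fl/fl Cd4-cre) a floxed gene of ATP citrate lyase, which makes cytosolic acetyl-CoA from citrate, and WT cells are given as wild type, with no floxed allele or Cre named. The Cd4 promoter drives Cre in developing T cells of the thymus, so the deletion is not limited to Th17 cells. Each genotype was cultured with and without acetate, a second source of acetyl-CoA. All groups share the start from naive CD4+ T cells, 48 hours of stimulation through CD3 and CD28 with Th17 cytokines, a further 24 hours in which acetate was or was not present, and 5 hours of PMA and ionomycin with brefeldin A and monensin. For acetate the protocol of each sample names 20 mM while the text on the series names 10 mM, and the cytokines of the medium are not listed. The background is given as C57BL/6 for 12 libraries and as C57BL/7 to C57BL/12, 1 library each, for the other 6, of which 5 are ACLYKO and 1 is GLUT3KO with acetate. Whether replicate libraries derive from different mice is not stated. The spread that p-values rest on may therefore be technical.

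TGF-beta is secreted in a latent complex and, once freed, binds the type II receptor TGFBR2, which activates the type I receptor TGFBR1. TGFBR1 phosphorylates SMAD2 and SMAD3, which enter the nucleus with SMAD4 and act on target genes, while SMAD7 blocks the activated receptor and SKI and SKIL (SnoN) hold SMAD target genes silent. In CD4+ T cells TGF-beta takes part in the induction of both Th17 and regulatory T cells, and it induces Itgae, the alpha chain of CD103, an integrin that binds E-cadherin. Only transcripts were measured here, and neither phosphorylation nor protein turnover was.

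Promoter sequences are shown for Tgfbr1, Tgfbr2, Smad3 and Ski, the 4 members with a RefSeq promoter entry whose transcripts were higher in GLUT3KO than in WT cells. Each is the 250 bases before the annotated start of the gene in GRCm38.p6, written 5′ to 3′ on the strand of the gene. Tgfbr1 lies at chr4:47352972-47353221 on the plus strand, Tgfbr2 at chr9:116175364-116175613 on the minus strand, Smad3 at chr9:63757995-63758244 on the minus strand and Ski at chr4:155222536-155222785 on the minus strand. Capitals mark the SMAD box CAGAC and the GC box GGGCGG, a Sp1 motif, in either orientation.
Tgfbr1: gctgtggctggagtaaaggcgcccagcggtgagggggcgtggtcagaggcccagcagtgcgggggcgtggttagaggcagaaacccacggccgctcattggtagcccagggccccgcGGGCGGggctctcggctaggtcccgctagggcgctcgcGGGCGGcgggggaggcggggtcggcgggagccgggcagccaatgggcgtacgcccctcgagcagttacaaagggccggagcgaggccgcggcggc
Tgfbr2: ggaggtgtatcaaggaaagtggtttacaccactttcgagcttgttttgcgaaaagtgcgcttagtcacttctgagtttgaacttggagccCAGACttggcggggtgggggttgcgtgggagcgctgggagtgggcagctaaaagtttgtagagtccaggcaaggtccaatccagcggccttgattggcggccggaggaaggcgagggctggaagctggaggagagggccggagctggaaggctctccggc
Smad3: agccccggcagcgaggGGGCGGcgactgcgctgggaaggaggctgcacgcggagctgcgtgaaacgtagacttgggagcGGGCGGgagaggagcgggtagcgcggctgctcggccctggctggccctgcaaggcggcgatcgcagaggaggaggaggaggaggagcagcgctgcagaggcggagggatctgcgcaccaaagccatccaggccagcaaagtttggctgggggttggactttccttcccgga
Ski: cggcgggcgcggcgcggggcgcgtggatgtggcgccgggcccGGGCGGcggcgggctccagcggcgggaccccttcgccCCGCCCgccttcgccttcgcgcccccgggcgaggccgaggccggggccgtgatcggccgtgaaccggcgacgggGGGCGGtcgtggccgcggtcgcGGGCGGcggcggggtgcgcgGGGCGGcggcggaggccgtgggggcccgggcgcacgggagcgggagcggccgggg

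The window of Tgfbr2 holds 1 SMAD box and no GC box. Those of Tgfbr1, Smad3 and Ski hold 2, 2 and 5 GC boxes, overlapping matches counted, and no SMAD box. The palindromic SMAD element GTCTAGAC and the AP-1 motif TGANTCA are in none of the 4. Of the 32851 RefSeq promoter windows of this length, 42.2% hold a SMAD box, 32.7% a GC box, 6.75% the AP-1 motif and 0.167% the palindromic element. GC content is 58.4% in Tgfbr2, 69.2% in Smad3, 74.8% in Tgfbr1 and 87.6% in Ski, beside a median of 52.4% over all windows. Windows on chromosome 18, where Smad2, Smad4 and Smad7 lie, are not reported here. Of the other members 5 have an entry, the fifth being Tgfb1. RefSeq has a second start for Tgfbr1, away from the start of the gene in the table, and its window (chr4:47385966-47386215) holds 1 SMAD box, no GC box and 52.8% GC.

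The libraries held 18.7 to 30.1 M recovered reads (median 23.2 M), and members had from 21 reads (Itgae) to 15946 reads (Tgfbr1) in a library. Slc2a3, the GLUT3 gene, averaged 6.17 ± 2.10 TPM in GLUT3KO, 10.2 ± 3.91 TPM in ACLYKO and 17.7 ± 2.91 TPM in WT cells (SD, n = 3 each). It was lower in GLUT3KO than in WT (limma adjusted p = 0.00118), while ACLYKO libraries also lay below all of WT (log2 change -0.80, 0.0590) and overlapped those of GLUT3KO (difference -0.62, 0.0939). With acetate Slc2a3 averaged 10.65 ± 2.64 TPM in GLUT3KO, 20.6 ± 4.10 TPM in ACLYKO and 31.0 ± 1.53 TPM in WT. Acly averaged 11.3 ± 3.85 TPM in ACLYKO and 396 ± 4.27 TPM in WT cells. T cell transcripts were high throughout, with Cd4 at 153 to 388 TPM. The largest axis of variation within groups held 63.6% of that variance, and ACLYKO replicate 1 stood farthest out on it with a score of 0.674, followed in size by ACLYKO replicates 3 and 2 (-0.4 and -0.274), GLUT3KO replicate 2 (-0.269) and WT replicate 1 (0.266). ACLYKO replicate 1 stood apart from replicates 2 and 3 in Smad3, Smad7, Ski and Skil. It also did in Tgfb1 (79.7 against 182 and 137 TPM) and Tgfbr2 (17.45 against 23.1 and 22.2 TPM). Values without ACLYKO replicate 1 are therefore given where it alters a call of ACLYKO cells or moves a called value by over 1.5 times. Without it, ACLYKO and WT also did not differ past the threshold in Tgfb1 (0.40, limma adjusted p = 0.230), Tgfbr1 (0.11, 0.692), Tgfbr2 (-0.05, 0.769), Smad4 (-0.05, 0.772), Ski (0.25, 0.251) and Itgae (-0.0029, 0.996), all as log2 changes without acetate. Across the 18 libraries, which are the points that define the axis, the deviations of Smad3 and Skil from their group means followed it (r = 0.92 and 0.895) and those of Smad7 and Tgfbr2 ran against it (r = -0.822 and -0.749).

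Both receptors, Smad3, Smad4, Ski and Itgae were higher in GLUT3KO cells, and the other 4 members did not pass the test. Of the 10 members 6 were higher in GLUT3KO than in WT cells without acetate and 0 were lower (limma, adjusted p under 0.05), where 33.4% of all 14229 genes were called, 24.9% as higher and 8.47% as lower. The median log2 change was 0.81 over the members and 0.17 over all genes, where log2 changes are differences of mean log2(TPM + 1), a scale that understates changes of low genes such as Itgae. Median-ratio scaling moved the all-gene median to -0.01 and the share of higher calls among all called genes from 74.7% to 54.9%, and correcting libraries for GC content and gene length (below, GC and length correction) moved that share to 46.8%. The first left the 6 calls of members in place, and the second left 5 of them, without Smad4, and added Smad2 and Smad7 as lower. In bulk RNA, fewer cells of a type and less RNA per cell cannot be told apart. Beside these changes, the summed level of 3 NK and gamma-delta T cell markers was 35.1 to 88.1 TPM in GLUT3KO and 2.02 to 3.44 TPM in WT cells, nearly all of it Trdc, with Klrb1c and Ncr1 under 1 TPM in every library. The 3 regulatory T cell markers summed to 1025 to 1310 TPM in GLUT3KO and 675 to 806 TPM in WT cells, nearly all of it Il2ra, with Foxp3 at 1.33 ± 0.128 and 0.744 ± 0.109 TPM. The 8 Th17 and T cell markers summed to 808 to 880 TPM in GLUT3KO and 1723 to 2002 TPM in WT cells, and the 4 fibroblast markers to 1.69 to 2.39 TPM and 0.0770 to 0.133 TPM. The 5 B cell markers summed to 0.527 to 0.981 TPM in GLUT3KO and 0.257 to 0.621 TPM in WT cells, the 6 myeloid markers to 0.807 to 2.22 TPM and 0.476 to 0.601 TPM with C1qa at 0 in both, and the 5 dendritic cell markers to 1.34 to 2.04 TPM and 0.451 to 0.574 TPM with Clec9a at 0 in both. The 4 platelet and megakaryocyte markers summed to 1.275 to 8.47 TPM in GLUT3KO and 0.0793 to 0.607 TPM in WT cells with Gp9 at 0 in both, the 3 erythroid markers to 0 to 1.26 TPM and 0 to 0.166 TPM, and the CD8 T cell markers to 10.1 to 12.1 TPM and 11.6 to 13.0 TPM. The part of these cell types in the changes of the members was not tested.

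**Figure D1:**
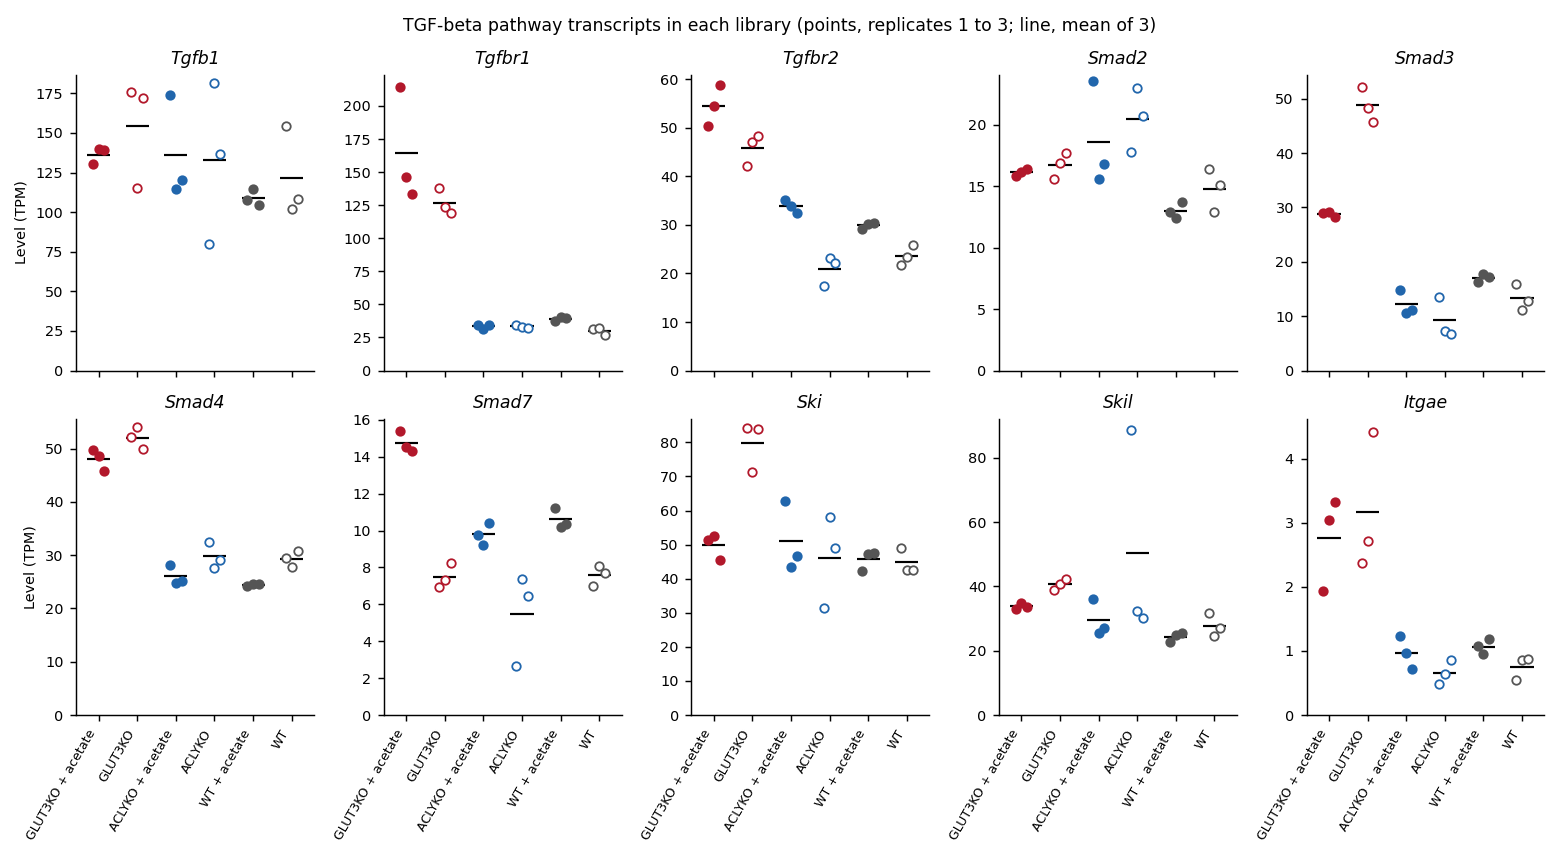
Level in TPM of each of the 10 genes in each of the 18 libraries, by group, where points are replicates 1 to 3, filled with acetate and open without, and lines are group means of 3. The 6 GLUT3KO libraries, with and without acetate, lie above all other libraries for Tgfbr1, Tgfbr2, Smad3, Smad4 and Itgae, and ACLYKO replicate 1 stands out in Skil at 88.7 TPM.

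Tgfb1 (GeneID 21803, chromosome 7, 25687002 to 25705077, GRCm38.p6) encodes TGF-beta 1, the ligand that T cells make themselves. Its level was 176, 115.5 and 172 TPM in the 3 GLUT3KO libraries, 79.7, 182 and 137 TPM in ACLYKO and 154, 102 and 108 TPM in WT. With acetate it was 130.1, 139.9 and 139 TPM in GLUT3KO, 174, 115 and 120.5 TPM in ACLYKO and 108, 115 and 104 TPM in WT. The untreated groups overlapped, and of the acetate groups the GLUT3KO libraries all lay above the WT libraries. Tgfb1 passed the test in none of the comparisons (limma adjusted p from 0.345 for GLUT3KO against WT without acetate to 0.871 for ACLYKO against WT without acetate, among losses and acetate). The log2 change under GLUT3 loss with acetate was 0.32 ± 0.27 (SE). This change passed in a limma fit of those 2 groups alone (adjusted p = 0.00146) and without the 5 libraries named under processing (0.00969). Those 5 libraries all lie outside the 2 groups, so the log2 change stayed the same and only the shared spread moved. Without the same 5 libraries Tgfb1 was also higher under ACLY loss (0.58, 0.00171).

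Tgfbr1 (GeneID 21812, chromosome 4, 47353222 to 47414926), the type I receptor, was the member that differed most from WT in GLUT3KO cells. It stood at 138, 123 and 119 TPM in GLUT3KO, 34.7, 32.8 and 32.5 TPM in ACLYKO and 31.3, 32.3 and 27.1 TPM in WT libraries. With acetate it stood at 214, 146 and 133 TPM in GLUT3KO, 34.2, 31.5 and 34.7 TPM in ACLYKO and 37.8, 40.2 and 39.7 TPM in WT. Every GLUT3KO library was thus more than 100 TPM and every other library under 41 TPM. The mean was 4.19-fold that of WT without acetate (log2 change 2.03 ± 0.15, limma adjusted p = 1.52e-07) and 4.19-fold with acetate (2.01 ± 0.15, 1.72e-07). Both changes kept their call in all 31 alternative fits. In ACLYKO cells Tgfbr1 did not pass without acetate (log2 change 0.14 ± 0.15, adjusted p = 0.553) or with it (-0.22 ± 0.15, 0.389), and the second passed with the GC and length correction (-0.59, 0.0317). Acetate gave log2 changes of 0.34 ± 0.15 in GLUT3KO, where the libraries overlapped, 0.00 ± 0.15 in ACLYKO and 0.37 ± 0.15 in WT, where the acetate libraries all lay above, and none passed (adjusted p = 0.152, 0.990 and 0.190). The value in GLUT3KO passed with the GC and length correction (0.63, 0.021) and with voom on the recovered reads (0.48, 0.0487), and that in WT with the correction and a block for the replicate number together (0.51, 0.03805).

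Tgfbr2 (GeneID 21813, chromosome 9, 116087695 to 116175363), the type II receptor that binds the ligand first, was also higher in GLUT3KO, by less than Tgfbr1. Libraries held 42.1, 47.1 and 48.2 TPM in GLUT3KO, 17.4, 23.1 and 22.2 TPM in ACLYKO and 21.7, 23.4 and 25.8 TPM in WT. In the acetate groups they held 50.3, 54.5 and 58.9 TPM in GLUT3KO, 35.2, 33.9 and 32.6 TPM in ACLYKO and 29.2, 30.2 and 30.5 TPM in WT. GLUT3KO lay above the other genotypes in both conditions. In all 3 genotypes each acetate library lay above each untreated one. The log2 change under GLUT3 loss was 0.93 ± 0.12 without acetate and 0.84 ± 0.12 with it (limma adjusted p = 4.06e-05 and 1.07e-04). Acetate raised Tgfbr2 in ACLYKO by 0.68 ± 0.12 (adjusted p = 0.00135, 0.56 and 0.00114 without ACLYKO replicate 1), and this call was lost when those 2 groups were fitted alone (0.143). In WT and GLUT3KO the rise with acetate did not pass (log2 changes 0.33 and 0.25, adjusted p = 0.137 and 0.205), and in WT it passed without ACLYKO replicate 1 (0.0197). Both passed under each other scaling, GLUT3KO with median-ratio scaling (0.36, 0.0279), quantile normalization (0.34, 0.0390) and the GC and length correction (0.43, 0.0222), and WT with the same 3 (0.365, 0.367 and 0.386, adjusted p = 0.03585, 0.0360 and 0.0464). The difference of the acetate change between ACLYKO and WT did not pass either (0.34 ± 0.18, adjusted p = 0.505).

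The proportion of the receptor transcripts differed too. Within a library, the TPM of Tgfbr1 over that of Tgfbr2 was 3.28, 2.62 and 2.47 in GLUT3KO, 1.99, 1.42 and 1.46 in ACLYKO and 1.45, 1.38 and 1.05 in WT. With acetate the ratio was 4.26, 2.68 and 2.26 in GLUT3KO, 0.971, 0.930 and 1.07 in ACLYKO and 1.29, 1.33 and 1.30 in WT. The GLUT3KO libraries lay above all others, and ACLYKO with acetate was the group in which Tgfbr1 came closest to Tgfbr2.

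Smad3 (GeneID 17127, chromosome 9, 63646766 to 63757994), a transducer that binds DNA, was higher in GLUT3KO than in WT cells, and its ACLYKO values lay lower without passing the test. It was at 52.2, 48.4 and 45.8 TPM in GLUT3KO, 13.6, 7.32 and 6.73 TPM in ACLYKO and 16.0, 11.1 and 12.8 TPM in WT libraries. Acetate cultures had 28.9, 29.1 and 28.3 TPM in GLUT3KO, 14.9, 10.6 and 11.2 TPM in ACLYKO and 16.3, 17.7 and 17.2 TPM in WT. GLUT3KO thus lay above WT in both conditions. ACLYKO lay below WT with acetate, and without acetate its replicate 1 fell inside the WT range while replicates 2 and 3 lay below it. Smad3 was 3.67-fold as high in GLUT3KO as in WT without acetate (log2 change 1.81 ± 0.21, limma adjusted p = 9.30e-06, kept in all 31 alternatives) and 1.68-fold with acetate (0.72 ± 0.21, 0.0154). The second call was lost under median-ratio scaling (adjusted p = 0.0804), quantile normalization (0.161) and the GC and length correction (0.181), and without WT with acetate replicate 1 (0.0520). Under ACLY loss Smad3 did not pass (-0.53 ± 0.21, adjusted p = 0.0879). Without ACLYKO replicate 1 the change was -0.82 (adjusted p = 0.00107), and with a block for the replicate number, shared by all 6 groups, the adjusted p was 0.0420. With acetate the change under ACLY loss was -0.47 ± 0.21 (0.165, and 0.0181 without ACLYKO replicate 1).

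Acetate lowered Smad3 in GLUT3KO by 0.74 on the log2 scale (SE 0.21, limma adjusted p = 0.0298), and every acetate library lay below every untreated one. In ACLYKO and WT the values ran the other way, by 0.42 ± 0.21 and 0.35 ± 0.21 (adjusted p = 0.189 and 0.394), and in WT every acetate library lay above every untreated one. Without ACLYKO replicate 1 the value in ACLYKO was 0.71 and passed (0.00347). The call in GLUT3KO was lost under median-ratio scaling (0.116), quantile normalization (0.108) and the GC and length correction (0.129), and when any 1 of GLUT3KO replicates 1 and 3 or of the 3 GLUT3KO acetate libraries was left out (0.105, 0.0697, 0.0783, 0.0839 and 0.0891). The difference of the acetate change between GLUT3KO and WT was -1.09 ± 0.29 (unadjusted p = 0.00205, adjusted p = 0.133). It passed without ACLYKO replicate 1 (0.00803), in a fit of the 4 groups alone (0.0176) and with voom on the recovered reads (0.0487).

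Smad2 (GeneID 17126, chromosome 18, 76241090 to 76311748), the other receptor-activated SMAD of the pathway, followed neither receptor. Its level was 15.6, 16.9 and 17.7 TPM in GLUT3KO, 17.8, 23.0 and 20.8 TPM in ACLYKO and 16.4, 12.9 and 15.1 TPM in WT. With acetate it was 15.8, 16.2 and 16.4 TPM in GLUT3KO, 23.5, 15.6 and 16.8 TPM in ACLYKO and 12.9, 12.4 and 13.8 TPM in WT. The ACLYKO libraries lay above those of WT in both conditions. Neither change passed, at 0.44 ± 0.15 without acetate and 0.47 ± 0.15 with it (limma adjusted p = 0.0516 and 0.0535). Both passed without WT replicate 1 (0.0418 and 0.04998), without ACLYKO replicate 1 (0.0154 and 0.0184) and without ACLYKO with acetate replicate 2 (0.0477 and 0.0316), and the first also without ACLYKO with acetate replicate 1 (0.0205), under median-ratio scaling (0.0205) and under quantile normalization (0.0223). Under GLUT3 loss Smad2 changed by 0.17 ± 0.15 (0.409), and the GC and length correction turned this to -0.48 (0.0223).

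The ratio of Smad3 to Smad2 differed between genotypes. Within a library it was 3.34, 2.87 and 2.58 in GLUT3KO, 0.762, 0.319 and 0.324 in ACLYKO and 0.975, 0.859 and 0.846 in WT. With acetate it was 1.83, 1.80 and 1.72 in GLUT3KO, 0.632, 0.679 and 0.665 in ACLYKO and 1.26, 1.43 and 1.25 in WT. The 3 genotypes did not overlap in either condition, and the means of GLUT3KO and WT lay closer together with acetate (GLUT3KO 1.78, WT 1.31) than without it (GLUT3KO 2.93, WT 0.893).

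Smad4 (GeneID 17128, chromosome 18, 73634790 to 73703791), the common partner of the activated SMADs, was higher in GLUT3KO and had the smallest standard error of the 10 members. It had 52.2, 54.0 and 49.9 TPM in GLUT3KO, 32.5, 27.6 and 29.1 TPM in ACLYKO and 29.5, 27.9 and 30.7 TPM in WT libraries. With acetate it had 49.7, 48.6 and 45.7 TPM in GLUT3KO, 28.1, 24.7 and 25.1 TPM in ACLYKO and 24.2, 24.5 and 24.5 TPM in WT. GLUT3KO was above the other genotypes in both conditions, while ACLYKO and WT overlapped without acetate. The log2 change under GLUT3 loss was 0.81 ± 0.10 without acetate and 0.95 ± 0.10 with it (limma adjusted p = 2.83e-05 and 6.48e-06). The GC and length correction reduced the first to 0.25 and ended its call (0.112), and left the second at 0.58 and called. Acetate gave -0.11, -0.19 and -0.25 in GLUT3KO, ACLYKO and WT, and none passed (adjusted p = 0.477, 0.242 and 0.182). The value in WT passed without ACLYKO replicate 1 (0.0362).

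**Figure D2:**
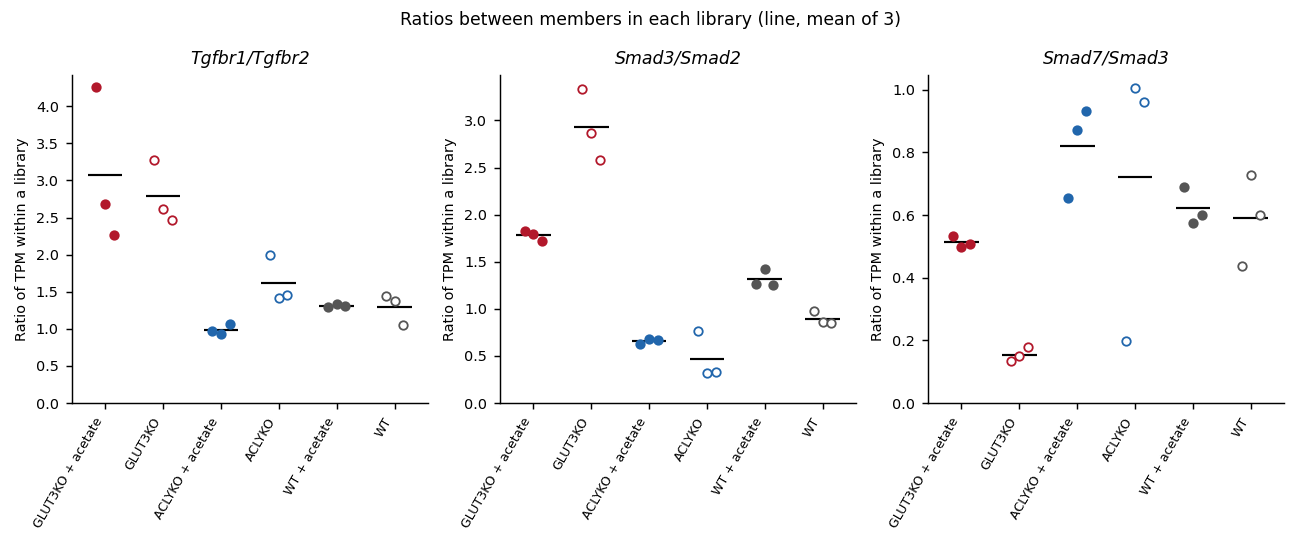
Ratios of TPM between pairs of members within each library, by group, where points are replicates 1 to 3, filled with acetate and open without, and lines are means of 3. Smad3 over Smad2 lies above 1.7 in all 6 GLUT3KO libraries, and Smad7 over Smad3 is 0.155 on average in GLUT3KO without acetate and 0.513 with acetate.

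Smad7 (GeneID 17131, chromosome 18, 75367365 to 75395935), the inhibitor at the receptor and itself a target of the pathway, was raised by acetate in both knockouts. Libraries with acetate had 15.4, 14.5 and 14.3 TPM in GLUT3KO, 9.75, 9.21 and 10.4 TPM in ACLYKO and 11.2, 10.2 and 10.4 TPM in WT. Libraries without acetate had 6.95, 7.30 and 8.22 TPM in GLUT3KO, 2.67, 7.36 and 6.46 TPM in ACLYKO and 7.01, 8.10 and 7.68 TPM in WT. In each genotype the acetate libraries lay above the untreated ones, and the 3 genotypes overlapped without acetate, while GLUT3KO lay above the other genotypes with it. The log2 change with acetate was 0.89 ± 0.22 in GLUT3KO, 0.82 ± 0.22 in ACLYKO and 0.43 ± 0.22 in WT (limma adjusted p = 0.0165, 0.0191 and 0.312). Without ACLYKO replicate 1 the value in ACLYKO was 0.45 (0.00711) and that in WT passed (0.00632). The call in GLUT3KO was lost without GLUT3KO replicate 1 (0.0645) and without GLUT3KO with acetate replicate 1 or 2 (0.0582 and 0.0535), and that in ACLYKO without ACLYKO with acetate replicate 3 (0.0694) and in a fit of those 2 groups alone (0.327). The acetate change differed from that in WT by 0.46 ± 0.31 in GLUT3KO and 0.38 ± 0.31 in ACLYKO (adjusted p = 1.00 and 0.729).

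Under GLUT3 loss Smad7 changed by -0.02 ± 0.22 without acetate and 0.44 ± 0.22 with it (limma adjusted p = 0.959 and 0.155), and the second passed without ACLYKO replicate 1 (0.00152). Under ACLY loss it changed by -0.49 ± 0.22 (0.143) without acetate, and by -0.12 (0.470) without ACLYKO replicate 1 and -0.71 (0.0335) without ACLYKO replicate 2. It passed under median-ratio scaling (-0.54, 0.0416), quantile normalization (-0.56, 0.0131) and the GC and length correction (-0.37, 0.0281). Smad7 and Smad3 therefore stood in unequal proportion in GLUT3KO cells. Smad7 over Smad3 was 0.133, 0.151 and 0.180 in GLUT3KO without acetate, 0.197, 1.00 and 0.960 in ACLYKO and 0.438, 0.729 and 0.601 in WT. With acetate it was 0.533, 0.499 and 0.506 in GLUT3KO, 0.656, 0.870 and 0.932 in ACLYKO and 0.689, 0.576 and 0.602 in WT. Untreated GLUT3KO lay below all other libraries. ACLYKO replicate 1, which had the lowest Smad7 and the highest Smad3 of its group, lay closest to it.

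Ski (GeneID 20481, chromosome 4, 155154075 to 155222535), a co-repressor of SMAD target genes, was higher in GLUT3KO than in WT cells without acetate and did not pass the test with it. It was at 84.2, 71.4 and 83.8 TPM in GLUT3KO, 31.5, 58.0 and 49.1 TPM in ACLYKO and 49.1, 42.6 and 42.7 TPM in WT. With acetate it was at 51.2, 52.7 and 45.6 TPM in GLUT3KO, 62.9, 43.6 and 46.6 TPM in ACLYKO and 42.3, 47.1 and 47.4 TPM in WT. The untreated GLUT3KO libraries lay above all others, and with acetate the genotypes overlapped. The log2 change under GLUT3 loss was 0.82 ± 0.19 without acetate (limma adjusted p = 0.00424, 0.0540 with voom) and 0.12 ± 0.19 with it (0.683). Acetate lowered Ski in GLUT3KO by 0.67 (SE 0.19, adjusted p = 0.0352). This call was lost with the block for the replicate number, which pairs these libraries (0.0929), with voom (0.109), without the filter (0.0513) and without WT with acetate replicate 2 (0.0503), GLUT3KO replicate 1 or 3 (0.117 and 0.118) or any 1 GLUT3KO acetate library (0.0809, 0.0794 and 0.124). The acetate change differed between GLUT3KO and WT by -0.70 ± 0.27 (unadjusted p = 0.0228, adjusted p = 0.481).

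Skil (GeneID 20482, chromosome 3, 31095058 to 31122923), which encodes the related co-repressor SnoN and is a target of the pathway, passed in no comparison, and 1 library set its level in ACLYKO. Its level was 39.0, 40.8 and 42.2 TPM in GLUT3KO, 88.7, 32.3 and 30.3 TPM in ACLYKO and 31.7, 24.6 and 27.0 TPM in WT. With acetate it was 33.0, 34.8 and 33.7 TPM in GLUT3KO, 36.0, 25.5 and 27.1 TPM in ACLYKO and 22.8, 24.8 and 25.5 TPM in WT. GLUT3KO lay above WT in both conditions. The log2 changes under GLUT3 loss, 0.54 ± 0.29 without and 0.46 ± 0.29 with acetate, did not pass (limma adjusted p = 0.171 and 0.262), and both passed without ACLYKO replicate 1 (0.00210 and 0.00645). Under ACLY loss the change was 0.66 ± 0.29 (0.128) with that library and 0.17 (0.414) without it. Leaving out ACLYKO replicate 3 instead gave 0.93 (0.0353).

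Itgae (GeneID 16407, chromosome 11, 73090505 to 73147449) was the least abundant member, on the TPM scale, which is per length. Libraries held 2.37, 2.71 and 4.42 TPM in GLUT3KO, 0.487, 0.642 and 0.858 TPM in ACLYKO and 0.539, 0.852 and 0.880 TPM in WT. With acetate they held 1.94, 3.04 and 3.32 TPM in GLUT3KO, 1.23, 0.970 and 0.718 TPM in ACLYKO and 1.08, 0.945 and 1.18 TPM in WT. The GLUT3KO libraries lay above all others in both conditions. The mean was 4.19-fold that of WT without acetate (log2 change 1.22 ± 0.19, limma adjusted p = 1.43e-04) and 2.59-fold with it (0.85 ± 0.19, 0.00289). These values rest on 125 to 164 reads a library in GLUT3KO and 23 to 92 in WT, and Itgae overlaps the gene Haspin on the opposite strand, which reached 19.8 TPM. How the counting treated strand is not given here, so reads of the pair may not be separated. In ACLYKO the changes were -0.08 ± 0.19 in both conditions (adjusted p = 0.797 and 0.841), and acetate passed in no genotype (0.653 in GLUT3KO, 0.401 in ACLYKO and 0.555 in WT). Itgb7, the beta chain of CD103, was 15.6 ± 4.27 TPM in GLUT3KO and 12.1 ± 2.21 TPM in WT cells (0.32 ± 0.39, adjusted p = 0.567).

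**Figure D3:**
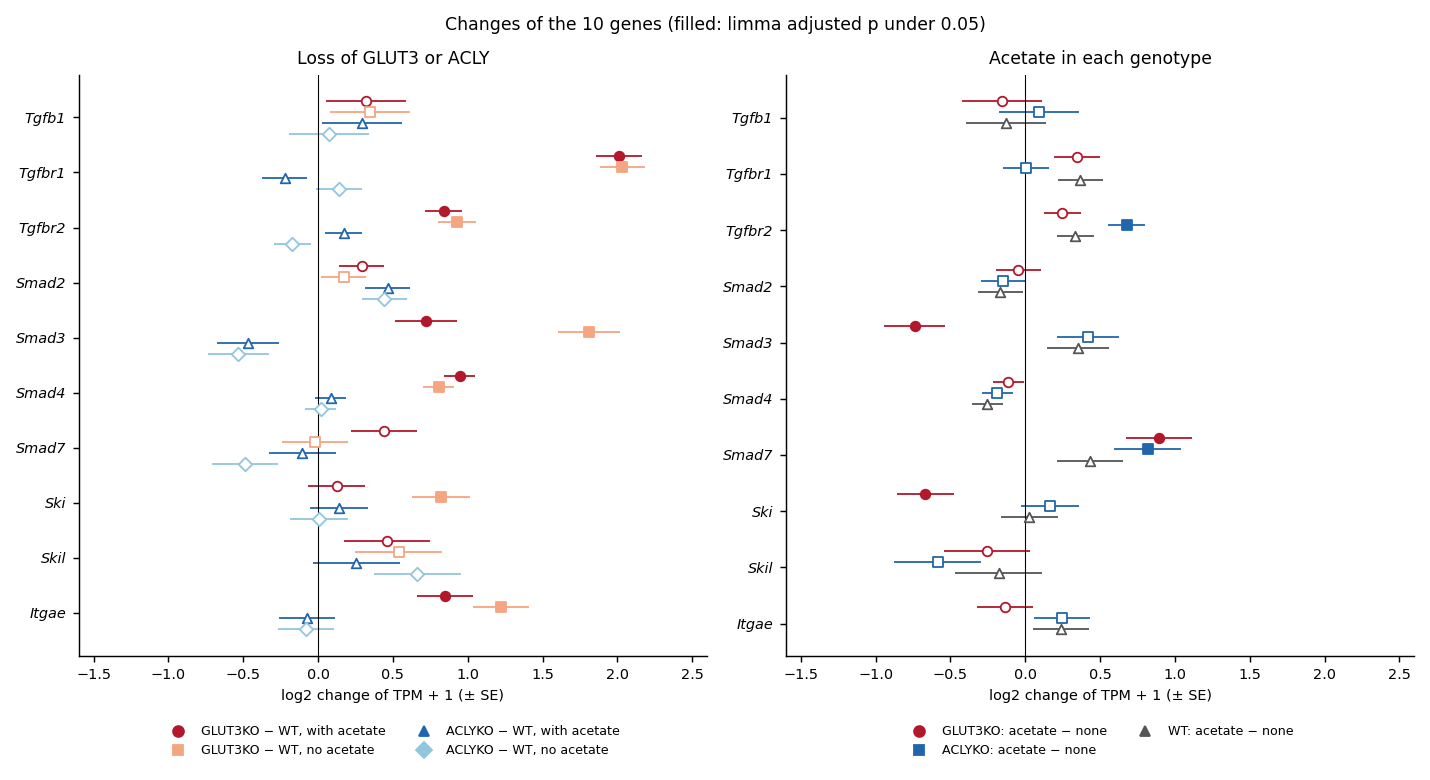
Differences in mean log2(TPM + 1) with their standard error for the 10 genes, for GLUT3KO or ACLYKO minus WT with and without acetate (left) and for acetate minus none in each genotype (right), where filled symbols have a limma adjusted p under 0.05. Tgfbr1 lies at 2.01 and 2.03 in GLUT3KO with and without acetate, and Smad3 and Ski lie below 0 for acetate in GLUT3KO while Smad7 lies above 0 in all 3 genotypes.

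With acetate, GLUT3KO against WT called 5 members, all higher (Tgfbr1, Tgfbr2, Smad3, Smad4 and Itgae), where 30.4% of all genes were called, 20.9% as higher and 9.5% as lower. ACLYKO against WT called 0 of 10 without acetate, where 19.1% of all genes were called, 12.7% as higher and 6.38% as lower, and 0 of 10 with acetate, where 13.5% were, 11.5% as higher and 1.98% as lower (limma). At an unadjusted p under 0.05 there were 4 (Smad2, Smad3, Smad7 and Skil) and 2 (Smad2 and Smad3), and voom called 1 in each, Smad3 as lower. Without 1 library the count rose to 2 (ACLYKO replicate 1) or 1 (WT replicate 1, ACLYKO replicates 2 and 3, and ACLYKO with acetate replicates 1 and 2) without acetate, and to 2 (ACLYKO replicate 1) or 1 (WT replicate 1 and ACLYKO with acetate replicate 2) with acetate.

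GLUT3KO set directly against ACLYKO without acetate called 6 members as higher, where 40.4% of all genes were called, 25.2% as higher and 15.2% as lower. The log2 differences were 2.34 ± 0.21 for Smad3, 1.89 ± 0.15 for Tgfbr1, 1.30 ± 0.19 for Itgae, 1.10 ± 0.12 for Tgfbr2, 0.81 ± 0.19 for Ski and 0.79 ± 0.10 for Smad4 (limma adjusted p from 5.22e-07 or less for Smad3 and Tgfbr1 to 0.00346 for Ski). The call of Ski did not hold in a fit of those 2 groups alone (0.0956). Skil differed by -0.12 ± 0.29, and by 0.37 (0.0351) without ACLYKO replicate 1. Smad7 differed by 0.47 ± 0.22 (0.108), by 0.10 (0.437) without ACLYKO replicate 1 and by 0.69 (0.01999) without ACLYKO replicate 2. Smad2 did not pass in this fit and was lower in GLUT3KO under median-ratio scaling (-0.44, 0.00662), quantile normalization (-0.51, 0.00190), the GC and length correction (-0.64, 0.00284) and voom (-0.45, 0.0323). This comparison and that of GLUT3KO with WT share the GLUT3KO libraries.

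Acetate called 3 members in GLUT3KO (Smad7 higher, Smad3 and Ski lower) where 12.7% of all genes were called, 4.86% as higher and 7.89% as lower. It called 2 in ACLYKO (Tgfbr2 and Smad7, both higher) where 17.3% were called, 11.7% as higher and 5.6% as lower. It called 0 in WT where 6.5% were called, 4.22% as higher and 2.28% as lower (limma). In WT 3 members had an unadjusted p under 0.05 (Tgfbr1, Tgfbr2 and Smad4) and voom called 0. Beside these changes, the summed level of the 8 Th17 and T cell markers was 2596 to 2945 TPM with acetate and 808 to 880 TPM without it in GLUT3KO, 1559 to 1750 TPM and 753 to 931 TPM in ACLYKO, and 3448 to 4486 TPM and 1723 to 2002 TPM in WT. Their part in the acetate changes was not tested. The count in GLUT3KO was 0 without GLUT3KO replicate 1 or GLUT3KO with acetate replicate 1 or 2, and 1 without GLUT3KO replicate 3 or GLUT3KO with acetate replicate 3. The count in ACLYKO was 1 without ACLYKO with acetate replicate 3, and that in WT was 3 without ACLYKO replicate 1. The difference of the acetate change from that in WT called 0 members for GLUT3KO (0.773% of all genes were called, 0.225% as higher and 0.548% as lower, 2 members had an unadjusted p under 0.05, and voom called 1, Smad3) and 0 for ACLYKO (1.34% of all genes, 0.78% as higher and 0.562% as lower, 0 and 0). Without ACLYKO replicate 1 the first count was 1.

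Scaling moved the balance of all genes in these comparisons as well. Under median-ratio scaling and under the GC and length correction, higher calls were 56.7% and 48.0% of all calls for GLUT3 loss with acetate, against 68.8% in the fit reported. The corresponding shares were 54.8%, 50.0% and 66.6% for ACLY loss, 62.0%, 54.6% and 85.4% for ACLY loss with acetate, and 52.0%, 47.7% and 62.3% for GLUT3KO against ACLYKO. For acetate they were 57.4%, 51.0% and 38.1% in GLUT3KO and 56.6%, 51.3% and 67.6% in ACLYKO. Median-ratio scaling moved the all-gene median log2 change from 0.16 to -0.02 for ACLY loss with acetate and from 0.10 to -0.03 for GLUT3KO against ACLYKO.

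Other genes of the pathway were read from lists by role, 71 genes of which 54 passed the filter. Under GLUT3 loss 29 of the 54 were higher and 4 lower, with a median log2 change of 0.64 beside 0.17 over all genes, of which 24.9% were higher and 8.47% lower. Of these genes 3 (Acvr2b, Dab2 and Nedd4l) passed the filter only through GLUT3KO libraries, so their higher level there is a description and no support, and Nedd4l is named after its values were seen. Of the other 51 genes 26 were higher and 4 lower. Over the 54 genes these counts were 25 and 5 under median-ratio scaling, 22 and 6 under quantile normalization and 18 and 7 under the GC and length correction. Of 9 tested receptors of the superfamily other than the members, 7 were higher and 1 lower, where 24.9% and 8.47% of all genes were, and 7 were higher under each of these scalings too. The 7 include Acvr2b, without which 6 of 8 were higher. Acvr2a, a type II receptor of activins, averaged 14.3 ± 1.03 TPM in GLUT3KO and 2.40 ± 0.285 TPM in WT cells (2.17 ± 0.14, limma adjusted p = 4.35e-08), and Tgfbr3, the co-receptor betaglycan, 18.3 ± 0.673 and 5.87 ± 0.140 TPM (1.49 ± 0.16, 6.20e-06). Acvr1, a type I receptor, was higher by 1.28 ± 0.15. Acvr1 was also called higher under ACLY loss, by 0.68 without acetate and 0.77 with it, each kept in 29 of 31 alternatives. Acvr2b averaged 3.63 TPM in GLUT3KO and 0.511 TPM in WT cells and reached at most 0.614 TPM in any library of the other genotypes, so its place among the tested genes already rests on GLUT3KO. Acvr2a, Tgfbr3 and Acvr1 kept their calls under GLUT3 loss in all alternative fits in which they were tested. Acetate lowered Tgfbr3 in GLUT3KO to 9.67 ± 0.734 TPM (-0.86 ± 0.16, 0.00333), and raised it in ACLYKO to 9.21 ± 3.00 TPM, against 4.24 ± 0.468 TPM without acetate (0.93 ± 0.16, 0.00103, lost in a fit of those 2 groups alone, 0.142). The acetate change of Tgfbr3 was lower in GLUT3KO than in WT (-1.13 ± 0.23, adjusted p = 0.0346).

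Among 8 tested genes of ligands and their activation 5 were higher and 1 lower under GLUT3 loss, where 24.9% and 8.47% of all genes were, and 3 and 2 under quantile normalization and under the GC and length correction. Itgav, the alpha chain of integrins that free latent TGF-beta, averaged 86.0 ± 13.4 TPM in GLUT3KO and 27.4 ± 4.23 TPM in WT cells (1.61 ± 0.20, limma adjusted p = 1.92e-05). Its partner Itgb8 averaged 0.865 ± 0.237 TPM in GLUT3KO and 0.315 ± 0.142 TPM in WT cells (0.50 ± 0.13, 0.00895), and this call was lost in 6 of 30 alternatives. Both were also called higher under ACLY loss without acetate. The log2 changes there were 0.60 for Itgav (kept in 13 of 31 alternatives) and 0.71 for Itgb8 (kept in 26 of 30). Lrrc32 (GARP), which holds latent TGF-beta on the cell surface, averaged 3.01 ± 0.853 TPM in GLUT3KO and 0.832 ± 0.355 TPM in WT cells (1.13 ± 0.17, 1.55e-04), and 9.86 ± 0.950 and 1.32 ± 0.0682 TPM with acetate (2.23 ± 0.17, 2.42e-07). Acetate raised it in GLUT3KO by 1.45 ± 0.17 (9.37e-05). Ltbp3, which binds latent TGF-beta outside the cell, was raised by acetate in all 3 genotypes, by 1.09 ± 0.15 in GLUT3KO, 1.47 ± 0.15 in ACLYKO and 1.43 ± 0.15 in WT (adjusted p = 3.85e-04, 1.33e-05 and 7.52e-05). Ltbp3 averaged 2.39 to 2.45 TPM in the acetate groups and 0.249 to 0.587 TPM in the untreated ones. It reached 1 TPM in all 9 acetate libraries and in 0 others, so it passed the filter only through the groups in which it is high, and its changes are given as a description.

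Of 20 tested regulators of the signal 11 were higher and 0 lower under GLUT3 loss, where 24.9% and 8.47% of all genes were, or 9 and 0 of 18 without Dab2 and Nedd4l. Over the 20 genes, 5 to 8 were higher and 0 lower under the other 3 scalings. Smurf2, a ubiquitin ligase that SMAD7 brings to the receptor, averaged 40.5 ± 3.10 TPM in GLUT3KO and 19.5 ± 2.17 TPM in WT cells (1.02 ± 0.15, limma adjusted p = 8.70e-05), and Tgif1, a co-repressor of SMAD2 and SMAD3, 60.1 ± 2.58 and 31.6 ± 1.96 TPM (0.91 ± 0.18, 0.00108, lost with the GC and length correction, 0.51 and 0.0783). Wwp1, a ubiquitin ligase of the same family, did not pass under GLUT3 loss (0.35 ± 0.15, 0.0880) and was lowered by acetate in GLUT3KO (log2 change -1.203, SE 0.15, 1.52e-04), to 27.7 ± 1.44 TPM with acetate, against 65.2 ± 5.41 TPM without. In GLUT3KO acetate lowered 6 of the 20 regulators and raised 0, where 7.89% of all genes were lower and 4.86% higher. These counts depended on the scaling: 2 were lower and 1 higher under median-ratio scaling and under quantile normalization, and 5 and 2 under the GC and length correction.

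Among 7 tested nuclear partners 3 were higher and 1 lower under GLUT3 loss, where 24.9% and 8.47% of all genes were, and 1 and 1 under the GC and length correction. Runx2, a RUNX factor that can act with SMADs, averaged 26.0 ± 2.12 TPM in GLUT3KO, 3.48 ± 0.266 TPM in ACLYKO and 9.15 ± 1.10 TPM in WT cells. It was thus higher than WT in GLUT3KO (1.42 ± 0.12, limma adjusted p = 3.87e-07) and lower in ACLYKO (-1.18 ± 0.12, 8.30e-06), with no overlap between the groups, and both calls held in all 31 alternatives. The partner called lower under GLUT3 loss was Runx3 (log2 change -0.69, kept in 24 of 31 alternatives). With acetate its change under GLUT3 loss was -1.01 (kept in 30 of 31). Of 2 tested SMADs of the bone morphogenetic protein branch, Smad5 was higher in GLUT3KO (0.89 ± 0.18, 0.00135, lost in 4 of 31 alternatives) and Smad1 did not pass (-0.38 ± 0.19, 0.137). Smad1 was higher in ACLYKO, at 18.2 ± 4.18 TPM against 11.1 ± 2.40 TPM in WT cells (0.66 ± 0.19, 0.0216, lost in 6 of 31 alternatives, among them without ACLYKO replicate 1, 0.49 and 0.0552).

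Of 7 tested targets of TGF-beta known from other cells, 2 were higher and 1 lower under GLUT3 loss, shares near the 24.9% and 8.47% of all genes, with a median log2 change of 0.06. Tgfbi averaged 3.76 ± 0.659 TPM in GLUT3KO, 1.48 ± 0.659 TPM in ACLYKO and 0.0505 ± 0.0498 TPM in WT cells (2.17 ± 0.29 in GLUT3KO, limma adjusted p = 4.44e-05, and 1.204 ± 0.29 in ACLYKO, 0.00938). The second call was lost in a fit of those 2 groups alone (0.05075). Tgfbi reached 1 TPM in 9 libraries, 6 of them GLUT3KO, and its mean in WT cells lay far under that. Its place among the tested genes, and among the 2 called higher, thus rests on groups in which it is high. Its changes are given as a description. The target called lower under GLUT3 loss was Id1 (log2 change -0.63, kept in 25 of 30 alternatives).

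Over the 54 tested genes, in the other comparisons, ACLY loss called 9 as higher and 4 as lower, where 12.7% and 6.38% of all genes were, and with acetate 2 and 2, where 11.5% and 1.98% were. GLUT3 loss with acetate called 20 and 3, where 20.9% and 9.5% of all genes were. Acetate called 6 and 11 in GLUT3KO, where 4.86% and 7.89% were, 8 and 4 in ACLYKO, where 11.7% and 5.6% were, and 4 and 1 in WT, where 4.22% and 2.28% were (limma). The balance for acetate in GLUT3KO turned with the scaling, to 8 and 4 under median-ratio scaling, 8 and 5 under quantile normalization and 12 and 6 under the GC and length correction. That for ACLY loss became 9 and 8, 8 and 6, and 7 and 10 under the same 3 settings.

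**Figure D4:**
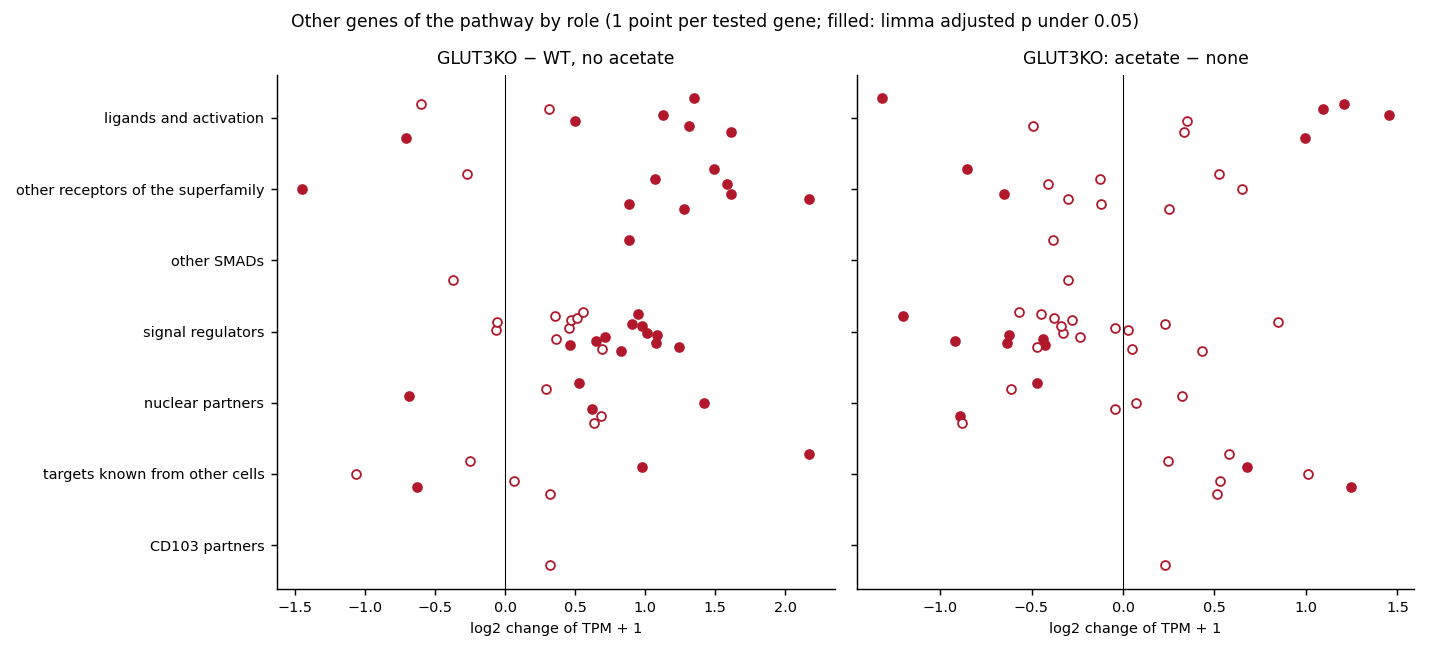
Differences in mean log2(TPM + 1) for the 54 tested genes of the other pathway lists, 1 point per gene, for GLUT3KO minus WT without acetate (left) and for acetate minus none in GLUT3KO (right), where filled points have a limma adjusted p under 0.05. On the left 29 points are called above 0 and 4 below, and on the right 6 above and 11 below, a balance that turned under the other 3 scalings.

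Patterns over the 18 libraries were compared by the Pearson correlation of log2(TPM + 1), which describes libraries that share genotype and culture and is given with no test. Among members Tgfbr1 and Smad4 ran closest (r = 0.917, and 0.281 for deviations from group means), then Tgfbr2 and Itgae (0.902 and 0.688). Tgfbr1 and Tgfbr2 stood at 0.86 over the libraries and at -0.597 for those deviations, so the likeness of this pair lies between groups. Other pairs were more alike within groups, such as Smad3 and Skil (0.294 over the libraries and 0.939 for deviations) and Tgfb1 and Ski (0.77 and 0.921). Smad7 and Skil ran opposite to each other (-0.626, and -0.905 for deviations from group means). ACLYKO replicate 1, with 2.67 TPM of Smad7 and 88.7 TPM of Skil, is among the points behind this. The protein-coding genes most like Tgfbr1 were Acoxl (0.989), Bcl2l11 (0.983) and Gad1 (0.982), those most like Smad4 were 4930402H24Rik (0.991), Pkn2 (0.985) and Morf4l1 (0.982), and those most like Tgfbr2 were Bmf (0.977), Cercam (0.972) and Fbxo44 (0.969). For Smad3 they were Tnfrsf22 (0.971), Mxi1 (0.962) and Pstpip1 (0.961), for Itgae Osgin1 (0.972), Abcc3 (0.964) and Xdh (0.964), and for Smad7 Ywhag (0.972), Slc44a2 (0.951) and Esrra (0.949). For Ski they were Pcif1 (0.960), Nfatc1 (0.941) and Cnnm2 (0.922), and for Skil Ywhae (0.968), Agps (0.957) and Tmem184c (0.956). The genes most like Tgfb1 were Prrc2a (0.954), Tnrc18 (0.929) and Stxbp2 (0.928), and those most like Smad2 were Mrs2 (0.916), Ctnnd1 (0.900) and Ttbk2 (0.899).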

How the data were processed

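Per the labels, polyadenylated RNA was read as stranded single-end libraries. Named in the submitters' processing notes, without roles, are the build GRCm38.p6 and the tools STAR 2.7.2b, featureCounts 1.6.4, cutadapt, DESeq2 and bcl2fastq 2.20.0.422, and how the counting treated strand is not given. The deposited table holds TPM made by the authors, with exon lengths in bases. Each column sums to 1e+06. TPM times length gave whole reads in 100% of values under 500 reads (tolerance 0.01). On a gene with 2000 exon bases 1 read is worth a median of 0.048 TPM, which limits the precision of low genes.

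The 14229 genes with at least 1 TPM in at least 3 libraries entered 1 limma model (version 3.58.1, R 4.3.3, trend and robust on) of log2(TPM + 1) with a mean per group, in which the 18 libraries share 1 estimate of spread. Benjamini-Hochberg adjustment covered these genes within each of 10 comparisons, with a threshold of 0.05. The fit was also run on simulated reads, drawn independently for each library with the same dispersion for every gene. Such reads have no within-group axis and no pairing of libraries, so they do not show how the fit behaves under these. The alternatives were 13 other fits (pseudocount 0.1, no filter or 5 TPM, median-ratio scaling, quantile normalization, only the groups compared, a replicate block, GC and length correction for the 95.9% of genes with a GC value with and without that block, the within-group axis as covariate, without the 5 libraries that an earlier analysis of these data set apart (WT replicate 1, GLUT3KO replicates 1 and 3, and replicate 1 of ACLYKO without and with acetate), voom on recovered reads, a minimum log2 change of 0.5) and 18 fits that leave out 1 library each.

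Replicate numbers come from the labels, which do not say what a number shares. Residuals of same-numbered libraries correlated by more than 0.1 in all 3 pairs for acetate within each genotype (0.120 to 0.548) and for WT and ACLYKO without acetate (0.285 to 0.577), so these count as paired. They did not for WT and GLUT3KO (0.721, 0.622 and -0.354). In comparisons between genotypes the replicate block was 1 effect per number, shared by all 6 groups. For acetate it was 1 effect per number within each genotype.

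Named genes are the members, the targeted genes, up to 4 genes per pathway list with the smallest adjusted p, and the 3 protein-coding genes most like each member. The values of 1 gene of the pathway lists are not reported here. Members and lists were chosen with earlier results of these data known. Promoter sequences are from RefSeq, build GRCm38.p6, and motifs were searched on both strands.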

Additional observations from a re-analysis of the deposited data

Results flagged for a closer look

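Smad3 moved in opposite directions with acetate in GLUT3KO and in WT cells. Acetate libraries held 28.3 to 29.1 TPM in GLUT3KO, all below the 45.8 to 52.2 TPM without acetate, and 16.3 to 17.7 TPM in WT, all above the 11.1 to 16.0 TPM without acetate. The difference of the log2 changes was -1.09 (limma adjusted p = 0.133 over all genes).

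Tgfbr1 in ACLYKO lay on opposite sides of WT without and with acetate. With acetate its libraries held 31.5 to 34.7 TPM, all below the 37.8 to 40.2 TPM of WT, and without acetate 32.5 to 34.7 TPM, all above the 27.1 to 32.3 TPM of WT. The change with acetate present did not pass (-0.22, limma adjusted p = 0.389) and passed with the GC and length correction (-0.59, 0.0317). The difference of the log2 changes was -0.36 (adjusted p = 0.594).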

How the results depend on the processing

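Refits of the called changes of members kept direction and call 256 times and lost the call 27 times under the other settings, and 380 and 16 times when 1 library was left out. In most fits that leave out 1 library, that library lies outside the groups compared. The log2 change then cannot move, and only the shared spread can. This is also so for GLUT3 loss with acetate when the 5 libraries are left out. Counts of kept calls over all alternatives include such fits. Counts of called members that moved by over 1.5 times are as follows. Under ACLY loss, against 0, they were 1 with the pseudocount of 0.1, the replicate block, the GC and length correction and voom, 2 with median-ratio scaling, quantile normalization and the GC and length correction with the block, 4 with the axis covariate and 5 without the 5 libraries that an earlier analysis set apart. Under ACLY loss with acetate, against 0, they were 1 with the GC and length correction and voom, and 2 with that correction and the block, the axis covariate and without the 5 libraries. Under GLUT3 loss with acetate, against 5, they were 9 with only the groups compared and without the 5 libraries, and 2 with the minimum log2 change of 0.5. For acetate in WT, against 0, they were 1 with median-ratio scaling, quantile normalization, only the groups compared and the GC and length correction with the block, 2 with that correction alone, and 4 with the axis covariate and without the 5 libraries. For acetate in GLUT3KO, against 3, they were 5 with the axis covariate and 0 with the minimum change. For acetate in ACLYKO, against 2, they were 0 with only the groups compared and with the minimum change, 5 with the axis covariate and 6 without the 5 libraries. For the acetate change in GLUT3KO against WT, against 0, they were 1 with only the groups compared, the axis covariate and voom. Its count without the 5 libraries is left out, as only 1 untreated GLUT3KO library remains there. The cause was not tested. Leaving out 1 library gave 6 to 7 for GLUT3 loss, 4 to 7 with acetate, 0 to 2 for ACLY loss without and with acetate, 6 to 7 for GLUT3KO against ACLYKO, 0 to 3 for acetate in GLUT3KO and in WT, 1 to 3 in ACLYKO, and 0 to 1 and 0 to 0 for the differences of the acetate change in GLUT3KO and ACLYKO. Of the changes of members and named pathway genes refitted with the replicate block, it altered the call of Smad3 under ACLY loss, Ski with acetate in GLUT3KO and Wwp1 under GLUT3 loss (adjusted p = 0.0413, gained) among those given in the text. The changes of Slc2a3 and Acly and the differences of acetate changes of pathway genes were not refitted.

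Direction turned, with a call on one side, for Smad2 under GLUT3 loss with the GC and length correction (-0.48, also with the block) and for Tgfb1 with acetate in ACLYKO without the 5 libraries (-0.42). It also did for Skil in GLUT3KO against ACLYKO (-0.39 to 0.37 when 1 library was left out, the highest without ACLYKO replicate 1). Without the 5 libraries, GLUT3KO against ACLYKO stood at -0.45 for Tgfb1 and 0.37 for Skil, with only 1 untreated GLUT3KO library left. With the GC and length correction, with and without the block, Sp1 stood at -0.068 under GLUT3 loss and -0.28 under ACLY loss, and Wwp1 at -0.35 under GLUT3 loss and -0.38 under ACLY loss, both with acetate. Changes of members with no call on either side turned sign in 100 such refits and in 55 that left out 1 library. Depth limits Itgae most, which outside GLUT3KO had 21 to 92 reads a library.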
